A study of Homo sapiens with 28 samples.

Results

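The 10 genes described here encode the main proteins that write, read and erase N6-methyladenosine (m6A) on RNA: METTL3, METTL14, WTAP, RBM15, VIRMA, CBLL1 and ZC3H13 of the writer complex, the readers YTHDC1 and YTHDF2, and the eraser ALKBH5. They were chosen with earlier results of these data known and taken by symbol. All 10 were found both among the 16482 genes of the table of all reads and among the 13029 genes of the table of T>C reads. Their RNA was measured in MDA-MB-453, a human breast cancer cell line, treated for 3 h with 1 of 4 compounds or with the solvent DMSO. JQ1 and IBET151 are inhibitors of the BET bromodomain proteins, which bind acetylated chromatin at active genes. JQ1-VHL and IBET151-VHL carry in addition a ligand that recruits VHL, part of a ubiquitin ligase, a design that directs BET proteins to degradation. All groups, DMSO included, received 0.1 mM 4-thiouridine for the last 60 min. A read with T-to-C conversions (a T>C read) is taken here to mark RNA made in that hour, which was not tested. Digitonin separated a nuclear pellet from a cytoplasmic supernatant, and libraries of the 3′ ends of polyadenylated RNA were prepared from both. There were 3 libraries per compound and fraction and 3 for DMSO, except 2 for IBET151, giving 28 in all. The labels give no dose and do not say whether replicates were separate cultures, so p-values measure the spread between libraries, which may be technical.

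m6A is the most frequent internal modification of mRNA. METTL3 transfers the methyl group as a heterodimer with METTL14, while WTAP, VIRMA, RBM15, ZC3H13 and CBLL1 form the associated complex that places the enzyme in the nucleus and on its substrates. YTHDC1 reads the mark in the nucleus, where it acts in splicing and export. YTHDF2 reads it in the cytoplasm and recruits the CCR4-NOT deadenylase, which shortens the life of the bound mRNA, and ALKBH5 removes the methyl group.

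Values are signal that the authors scaled to ERCC RNA, which was added per mass of extracted RNA, so they are relative to the RNA mass of the fraction, and say nothing of amounts per cell. Fewer cells and less RNA per cell cannot be told apart. Nuclear libraries held 17851589 to 38658448 reads, of which 214725 to 1928012 were T>C reads. Cytoplasmic libraries held 30647584 to 68475299 reads, of which 82264 to 379401 were T>C reads. All 7 markers of the line were found, among them GATA3 at a mean of 45838 in DMSO cytoplasm, while the basal keratin KRT14 was at 0 in all DMSO cytoplasmic libraries and the leukocyte gene PTPRC was at a mean of 3.64. COL1A1, listed as a stromal gene, was at 1620 in DMSO cytoplasm, with COL1A2 at 1.43. The nuclear RNA MALAT1 averaged 38870 in DMSO nuclei and 2138 in DMSO cytoplasm. The mRNA of GAPDH averaged 145066 in DMSO nuclei and 144488 in DMSO cytoplasm, so the nuclear pellets held much mRNA that is known from the cytoplasm. The sum of 5 cytoplasmic RNA markers, GAPDH among them, ranged from 157813 to 1049084 in DMSO nuclei and from 518341 to 720725 in DMSO cytoplasm. Nuclear libraries thus differed widely in this signal, and how far that affects the nuclear values and T>C shares of the members was not tested. Overlapping genes are annotated for 3 of the 10: TOX4 for METTL3, SOD2 for WTAP and CBLL1-AS1 for CBLL1. Whether reads were counted by strand is not given in the sources used here, so values of these 3 may include reads of the partner.

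In all cytoplasmic reads, RBM15, the RNA-binding subunit that guides the writer complex to its targets, had the largest log2 change of the 10 members with each VHL compound. The stretch of 250 bases before the annotated start is shown for RBM15, for METTL14 and CBLL1, which also fell, and for ALKBH5, which did not pass the test in all cytoplasmic reads. The sequences are RefSeq promoters of GRCh38.p14, printed on the gene's strand, at chr1:110339127-110339376 (+) for RBM15, chr4:118685142-118685391 (+) for METTL14, chr7:107743892-107744141 (+) for CBLL1 and chr17:18183578-18183827 (+) for ALKBH5. Capitals mark matches, on either strand, to the GC box GGGCGG, to the CCAAT motif, to the E-box CACGTG, to the sequence TATAAA of the TATA box or to the cAMP response element TGACGTCA.
RBM15: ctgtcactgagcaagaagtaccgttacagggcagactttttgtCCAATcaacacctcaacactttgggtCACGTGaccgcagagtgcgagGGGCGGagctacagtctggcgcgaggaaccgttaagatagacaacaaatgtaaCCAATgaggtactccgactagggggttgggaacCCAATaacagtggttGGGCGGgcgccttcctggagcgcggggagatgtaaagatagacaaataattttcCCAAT
METTL14: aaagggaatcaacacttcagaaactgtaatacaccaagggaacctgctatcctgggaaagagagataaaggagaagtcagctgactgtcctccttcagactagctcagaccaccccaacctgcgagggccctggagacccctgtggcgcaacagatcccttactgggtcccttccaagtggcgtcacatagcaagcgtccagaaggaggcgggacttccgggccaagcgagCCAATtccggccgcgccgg
CBLL1: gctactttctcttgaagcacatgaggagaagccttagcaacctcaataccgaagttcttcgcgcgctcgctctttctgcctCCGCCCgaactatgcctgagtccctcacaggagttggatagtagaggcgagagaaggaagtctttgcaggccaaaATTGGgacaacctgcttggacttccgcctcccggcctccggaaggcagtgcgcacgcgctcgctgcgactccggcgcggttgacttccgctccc
ALKBH5: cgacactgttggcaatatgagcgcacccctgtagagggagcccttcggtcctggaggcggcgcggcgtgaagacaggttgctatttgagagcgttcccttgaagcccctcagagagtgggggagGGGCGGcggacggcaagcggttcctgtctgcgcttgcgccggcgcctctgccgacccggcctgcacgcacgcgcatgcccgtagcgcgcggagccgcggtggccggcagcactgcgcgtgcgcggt

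The RBM15 window held 4 CCAAT matches, 2 GC boxes and 1 E-box, with no overlap among them. METTL14 held 1 CCAAT, CBLL1 held 1 GC box and 1 CCAAT on the opposite strand, and ALKBH5 held 1 GC box. Of 35116 promoter windows of the same length, 32.0% held CCAAT, 42.6% a GC box and 6.34% an E-box. TATAAA (10.7% of windows) and TGACGTCA (1.65%) had no match in the 4 windows. The matches describe these letters only.

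All cytoplasmic reads were compared first, since they measure the mRNA present after 3 h. RBM15, METTL14 and YTHDF2 fell with both VHL compounds, and CBLL1 fell with IBET151-VHL, while no member passed with JQ1 or IBET151 and none rose. RBM15 stood at 768, 731 and 472 in JQ1 libraries, at 347, 445 and 385 in JQ1-VHL libraries, at 717 and 608 in IBET151 libraries, at 187, 289.6 and 175 in IBET151-VHL libraries, and at 704, 1035 and 558 in DMSO. Every library of both VHL compounds lay below every DMSO library, and every IBET151-VHL library lay below every JQ1-VHL library. The log2 change against DMSO, on the log2(value + 1) scale that understates changes of low genes, was -1.80 ± 0.26 (SE; adjusted p = 0.00022) with IBET151-VHL and -0.92 ± 0.26 (adjusted p = 0.032) with JQ1-VHL, by limma with Benjamini-Hochberg adjustment over 12470 genes. As a ratio of means, RBM15 was 3.53 times as high in DMSO as in IBET151-VHL cells and 1.95 times as high as in JQ1-VHL cells.

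METTL14, which binds RNA beside METTL3 in the methyltransferase core, stood at 399, 469 and 294 in JQ1 libraries, at 287, 341 and 299 in JQ1-VHL libraries, at 443 and 384 in IBET151 libraries, at 267, 275 and 267 in IBET151-VHL, and at 461, 801 and 412 in DMSO. The VHL libraries lay below those of DMSO, and 1 DMSO library was much higher than the other 2. The log2 change was -0.98 ± 0.24 (limma adjusted p = 0.0099) with IBET151-VHL and -0.79 ± 0.24 (limma adjusted p = 0.042) with JQ1-VHL. With JQ1 and IBET151 it was also below 0 without passing, at -0.49 ± 0.24 and -0.37 ± 0.27 (limma adjusted p = 0.35 and 0.64). YTHDF2, the cytoplasmic reader, stood at 1942, 2367 and 2182 in JQ1-VHL and at 1793, 1867 and 1541 in IBET151-VHL, against 3192, 4269 and 2713 in DMSO. In JQ1 it stood at 2817, 2608 and 1811, and in IBET151 at 2650 and 2437, both below every DMSO library. The VHL groups did not overlap that of DMSO, with changes of -0.63 ± 0.20 (limma adjusted p = 0.049) for JQ1-VHL and -0.95 ± 0.20 (limma adjusted p = 0.0032) for IBET151-VHL. YTHDF2 changed by -0.49 ± 0.20 with JQ1 and -0.39 ± 0.22 with IBET151, without passing (limma adjusted p = 0.21 and 0.51). Its change with JQ1 was thus close to the one that passed with JQ1-VHL. CBLL1, a RING-finger protein of the writer complex, stood at 126, 129.5 and 149 in JQ1-VHL and at 87.4, 78.7 and 85.3 in IBET151-VHL, against 157, 260.0 and 156 in DMSO. Its change was -1.14 ± 0.23 (limma adjusted p = 0.0028) with IBET151-VHL and -0.46 ± 0.23 (limma adjusted p = 0.26) with JQ1-VHL. Groups also lay below DMSO without a call for CBLL1 with JQ1-VHL, WTAP with IBET151-VHL and YTHDF2 with IBET151. The share of all genes whose groups lie apart was not computed. Lack of overlap, here and below, is thus a description and no support for a call.

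**Figure D1:**
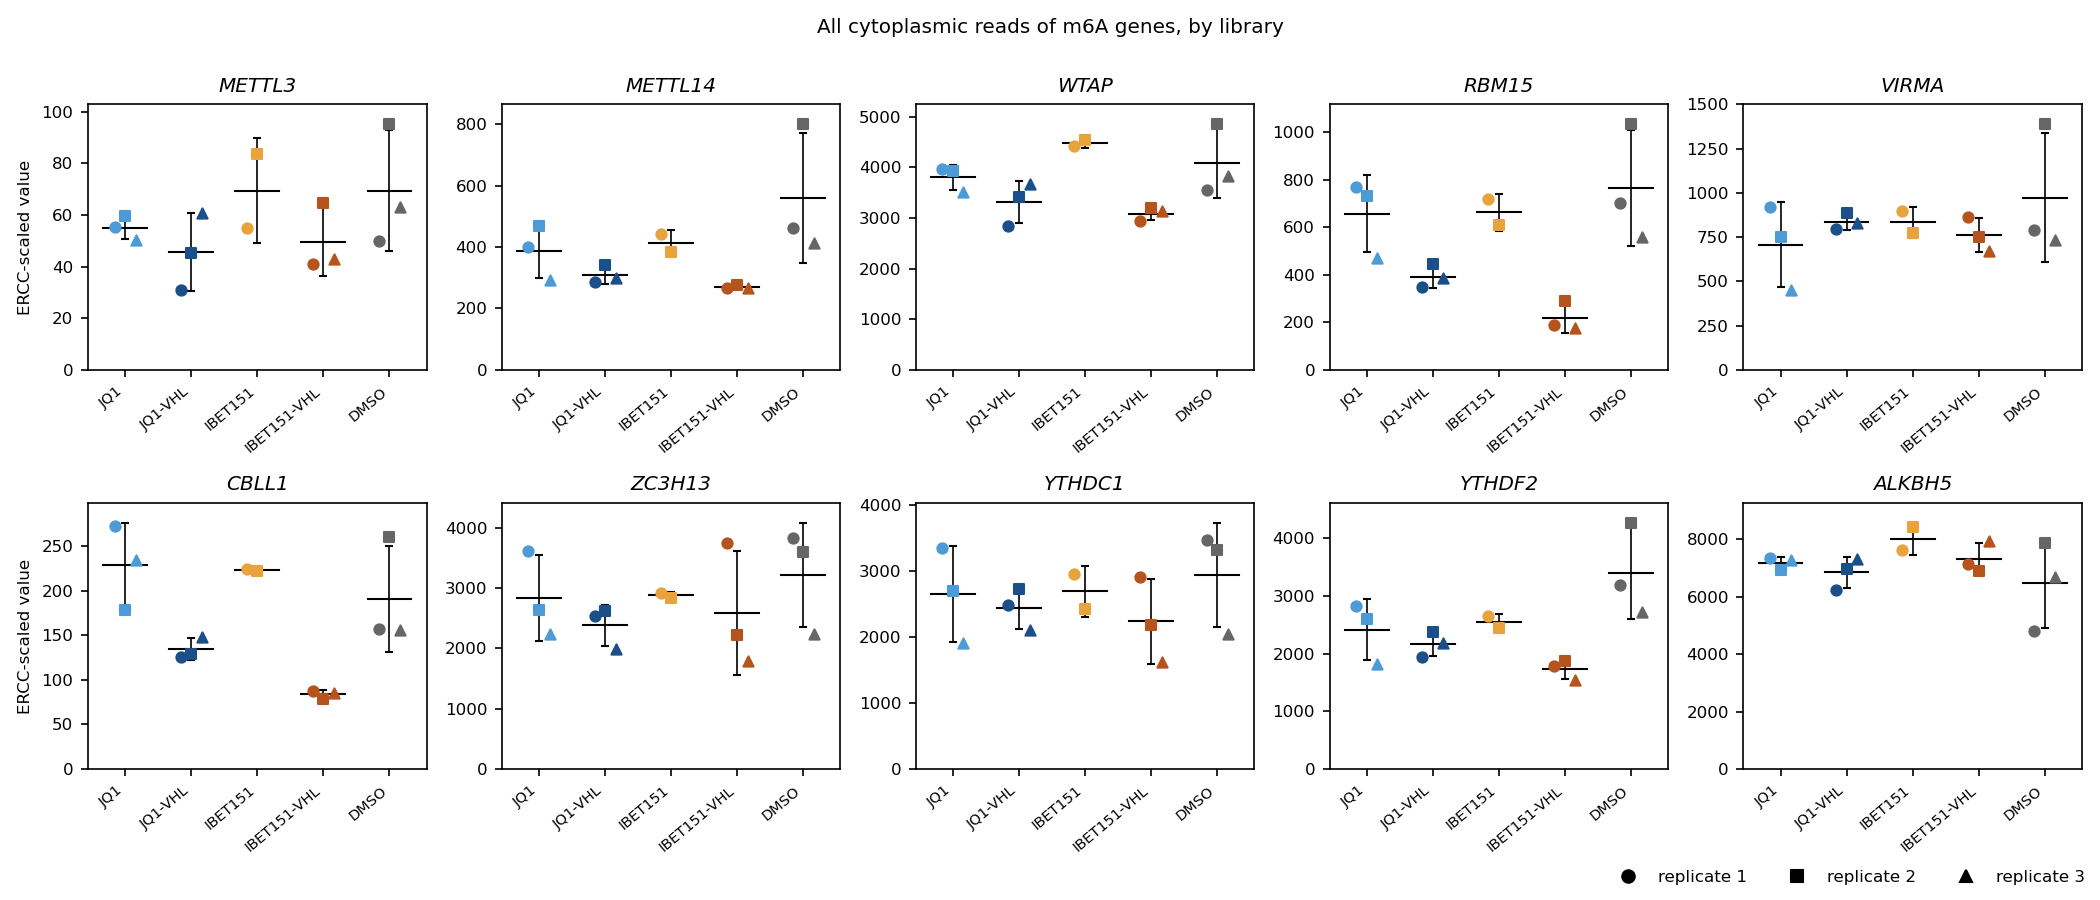
ERCC-scaled value of all cytoplasmic reads (y axis, linear from 0) of each m6A gene in every library of JQ1, JQ1-VHL, IBET151, IBET151-VHL and DMSO (x axis). Points are libraries, shaped by replicate number, and bars give the mean and SD. RBM15 lies between 175 and 289.6 in IBET151-VHL, below the DMSO range of 558 to 1035, while ALKBH5 of the drug groups lies within or above the DMSO range.

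The other 6 members did not pass in any of the 4 comparisons. The demethylase ALKBH5 stood at 6253, 6977 and 7316 in JQ1-VHL and at 7135, 6906 and 7927 in IBET151-VHL, against 4818, 7883 and 6696 in DMSO. Its groups overlapped, and the log2 change was 0.11 (95% interval -0.23 to 0.45) with JQ1-VHL and 0.21 (-0.14 to 0.55) with IBET151-VHL. VIRMA, the scaffold of the complex, changed by -0.15 (-0.72 to 0.41) with JQ1-VHL and by -0.30 (-0.87 to 0.27) with IBET151-VHL. METTL3, WTAP, ZC3H13 and YTHDC1 had log2 changes between -0.60 and -0.24 with the VHL compounds, without passing. METTL3 was low in this fraction, at 30.8 to 64.8 in the VHL libraries and 49.9 to 95.4 in DMSO.

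In the plot of log2 changes, 3 of 10 members passed as lower with JQ1-VHL, where 12.5% of all genes did, and 4 of 10 with IBET151-VHL, where 15.4% did. The members were chosen with earlier results of these data known, so such counts are no test of m6A genes as a group. The median log2 change of the 10 was -0.43 with each VHL compound, against -0.17 and -0.15 over all genes with JQ1-VHL and IBET151-VHL. With JQ1 and IBET151, limma called 0 members lower (4.00% and 1.62% of all genes), 1 and 0 had an unadjusted p under 0.05, and edgeR and DESeq2 called 0. The comparisons share the DMSO libraries. The calls for JQ1-VHL are near the threshold: the count of 3 became 0 without JQ1-VHL replicate 1, without JQ1-VHL replicate 3 or without DMSO replicate 2, and 1 without JQ1-VHL replicate 2 or DMSO replicate 1. It was also 0 in a fit of only the groups compared. For IBET151-VHL, leaving out any library gave 4 or 5.

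**Figure D2:**
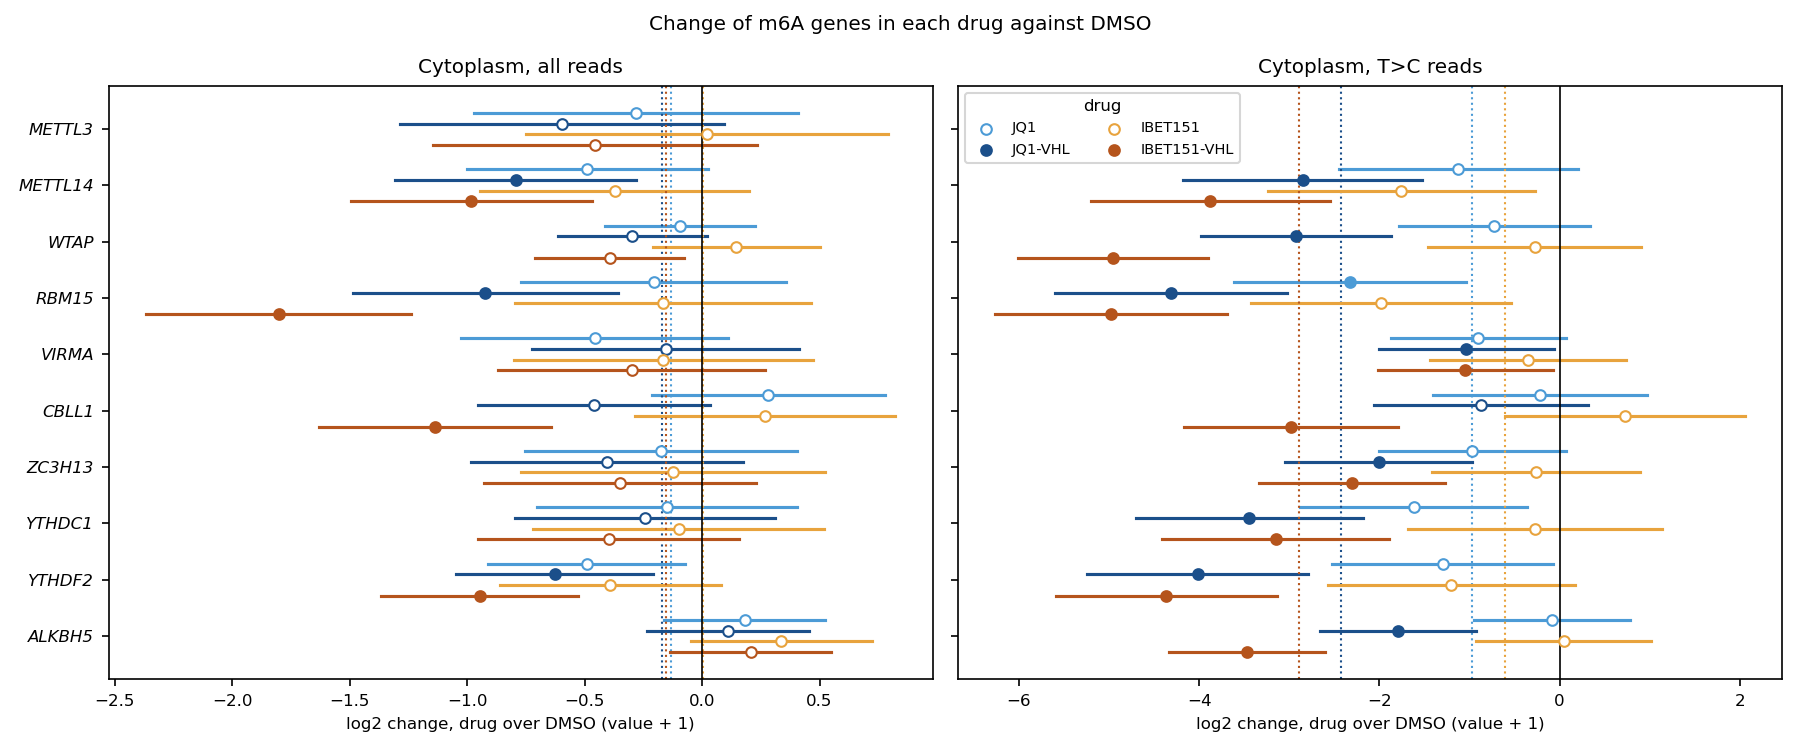
Log2 change of each m6A gene against DMSO in cytoplasm (x axis), in all reads (left) and in T>C reads (right), with the 95% interval. Filled points passed limma's adjusted p of 0.05, open points did not, and dotted lines give the median of all genes in the colour of the drug. In all reads 4 points are filled for IBET151-VHL, with RBM15 at -1.80, and in T>C reads all 9 tested points are.

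The VHL compounds were set against the inhibitors they contain, at the same 3 h but with no dose in the labels. Of 10 members, 2 were lower with IBET151-VHL than with IBET151 (7.87% of all genes): RBM15 by -1.64 ± 0.30 (limma adjusted p = 0.0025) and CBLL1 by -1.41 ± 0.26 (limma adjusted p = 0.0030). CBLL1 stood at 87.4, 78.7 and 85.3 in IBET151-VHL against 224 and 222 in IBET151. For JQ1-VHL against JQ1, limma called 0 members (4.18% of all genes), edgeR 0 and DESeq2 1, and 2 had an unadjusted p under 0.05. RBM15 differed there by -0.72 ± 0.26 (limma adjusted p = 0.21) and CBLL1 by -0.74 ± 0.23 (limma adjusted p = 0.11). Between the VHL compounds no member passed in all cytoplasmic reads by limma (0.0160% of all genes higher with JQ1-VHL), edgeR or DESeq2, and 2 had an unadjusted p under 0.05. RBM15 was higher with JQ1-VHL than with IBET151-VHL by 0.88 (95% interval 0.31 to 1.44), which did not pass over all genes (limma adjusted p = 0.97). JQ1 and IBET151 differed by -0.30 to 0.01 over the 10 members, none passing by any of the 3 tools and 0 with an unadjusted p under 0.05.

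T>C reads were taken as a measure of RNA made in the last hour. In DMSO cytoplasm they made up 4.56 ± 2.28% of RBM15 reads (SD, n = 3), 5.49 ± 2.75% of VIRMA, 4.52 ± 1.39% of CBLL1, 3.25 ± 0.79% of YTHDF2 and 2.76 ± 1.40% of METTL14. The share was 1.92 ± 0.04% for WTAP, 0.89 ± 0.31% for ALKBH5, 0.69 ± 0.18% for ZC3H13 and 0.55 ± 0.09% for YTHDC1 (SD, n = 3). The median over 11932 genes was 0.67%, and 92.3% of genes had a lower share than RBM15, while 44.8% had a lower share than YTHDC1. No library without 4-thiouridine was analysed here, so how many conversions arise without the label is unknown. Across the 10 members the DMSO share and the log2 change in all cytoplasmic reads had a Pearson r of -0.58 with IBET151-VHL and -0.37 with JQ1-VHL. These points share the DMSO libraries, and the values are a description.

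T>C reads of most members were much lower in the cytoplasm with the VHL compounds, as they were for most genes. RBM15 T>C values were 9.37, 5.56 and 2.62 in JQ1 libraries, 0, 0 and 2.97 in JQ1-VHL libraries, 6.66 and 7.29 in IBET151 libraries, 0 in all 3 IBET151-VHL libraries, and 46.7, 22.0 and 27.4 in DMSO. No drug library reached the lowest DMSO library. These rest on few reads: 58, 26 and 53 T>C reads in DMSO, and 0 of 906 RBM15 reads in IBET151-VHL, which allows a share of up to 0.331%. Against 3 counts per library, RBM15 T>C signal was at least 15.0-fold lower with IBET151-VHL than in DMSO. METTL14 was likewise at 0 in IBET151-VHL, against 20.1, 14.4 and 8.80 in DMSO, at least 6.76-fold lower.

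WTAP, the adaptor that brings METTL3 and METTL14 to nuclear speckles, had T>C values of 4.69, 16.3 and 10.4 in JQ1-VHL and 0, 2.59 and 3.58 in IBET151-VHL, against 66.8, 95.4 and 74.0 in DMSO. Its all-read change with IBET151-VHL was -0.39 ± 0.15 (limma adjusted p = 0.097), while its T>C signal changed by -4.95 ± 0.52 (limma adjusted p = 3.8e-09) with IBET151-VHL. YTHDF2 stood at 8.72, 16.3 and 0.743 in JQ1-VHL and 2.02, 3.46 and 9.55 in IBET151-VHL, against 131, 132 and 69.3 in DMSO. ALKBH5 stood at 10.7, 21.7 and 14.1 in JQ1-VHL and 4.04, 4.32 and 3.58 in IBET151-VHL, against 59.6, 60.8 and 43.5 in DMSO. Its cytoplasmic T>C signal thus fell (-1.79 ± 0.42 and -3.47 ± 0.42 for JQ1-VHL and IBET151-VHL, limma adjusted p = 0.00048 and 5.1e-08), as it did for most genes, while its total did not pass. In these T>C reads 72.9% of genes had a lower change with JQ1-VHL and 31.2% with IBET151-VHL. Nuclear T>C reads of ALKBH5 passed with neither. YTHDC1 was at 0, 2.72 and 0 in JQ1-VHL and at 0.673, 0.864 and 1.19 in IBET151-VHL, against 22.5, 17.7 and 9.83 in DMSO.

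VIRMA had the smallest T>C change of the 9 tested members with IBET151-VHL and the smallest after CBLL1 with JQ1-VHL. Its values were 21.5, 29.0 and 18.6 in JQ1-VHL and 39.7, 12.1 and 23.3 in IBET151-VHL, against 68.4, 59.9 and 25.9 in DMSO. Both VHL groups overlapped that of DMSO, and the changes of -1.04 ± 0.48 (limma adjusted p = 0.045) with JQ1-VHL and -1.05 ± 0.48 (limma adjusted p = 0.041) with IBET151-VHL each lost the call without DMSO replicate 1 or 2 and without 2 of the 3 VHL libraries (replicates 1 and 3 of JQ1-VHL, 2 and 3 of IBET151-VHL), with adjusted p of 0.063 to 0.24. Over all genes the median change was -2.42 and -2.89 with JQ1-VHL and IBET151-VHL. CBLL1 changed by -0.87 ± 0.58 (limma adjusted p = 0.16) with JQ1-VHL and by -2.98 ± 0.58 (limma adjusted p = 4.0e-05) with IBET151-VHL. ZC3H13, which anchors the complex in the nucleus, changed by -2.01 ± 0.51 (limma adjusted p = 0.00085) and -2.30 ± 0.51 (limma adjusted p = 0.00016) with JQ1-VHL and IBET151-VHL. METTL3 had 0 to 6 cytoplasmic T>C reads in any library and did not enter the test.

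Of the 9 members tested in cytoplasmic T>C reads, 8 were lower with JQ1-VHL, where 82.8% of 6300 genes were, and 9 with IBET151-VHL, where 88.3% were. These shares are near the background and are no result about m6A genes. Median-ratio scaling levels the libraries on genes with a read in every library, so directions under it are relative to those genes. It put the median of all genes at -0.86 and -1.23 with JQ1-VHL and IBET151-VHL, against -2.42 and -2.89 with the deposited scaling. The typical gene was thus not level under it. VIRMA then turned to 1.11 and 1.85, passing as higher with IBET151-VHL. CBLL1 (0.98) and ALKBH5 (0.35) also turned with JQ1-VHL, and ZC3H13 (0.35) with IBET151-VHL. The median over the 9 was -2.85 with JQ1-VHL and -3.47 with IBET151-VHL, or -3.15 when RBM15 and METTL14 are set to their bounds. With JQ1, 1 member passed as lower, RBM15 by -2.33 ± 0.63 (limma adjusted p = 0.012), against 20.1% of all genes. That call was lost without DMSO replicate 1 (-2.03, adjusted p = 0.065) and without JQ1 replicate 3 (-1.93, adjusted p = 0.067). With IBET151, limma, edgeR and DESeq2 called 0 members (6.76% of all genes by limma), 2 having an unadjusted p under 0.05, and RBM15 changed by -1.98 ± 0.70 (limma adjusted p = 0.081).

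**Figure D3:**
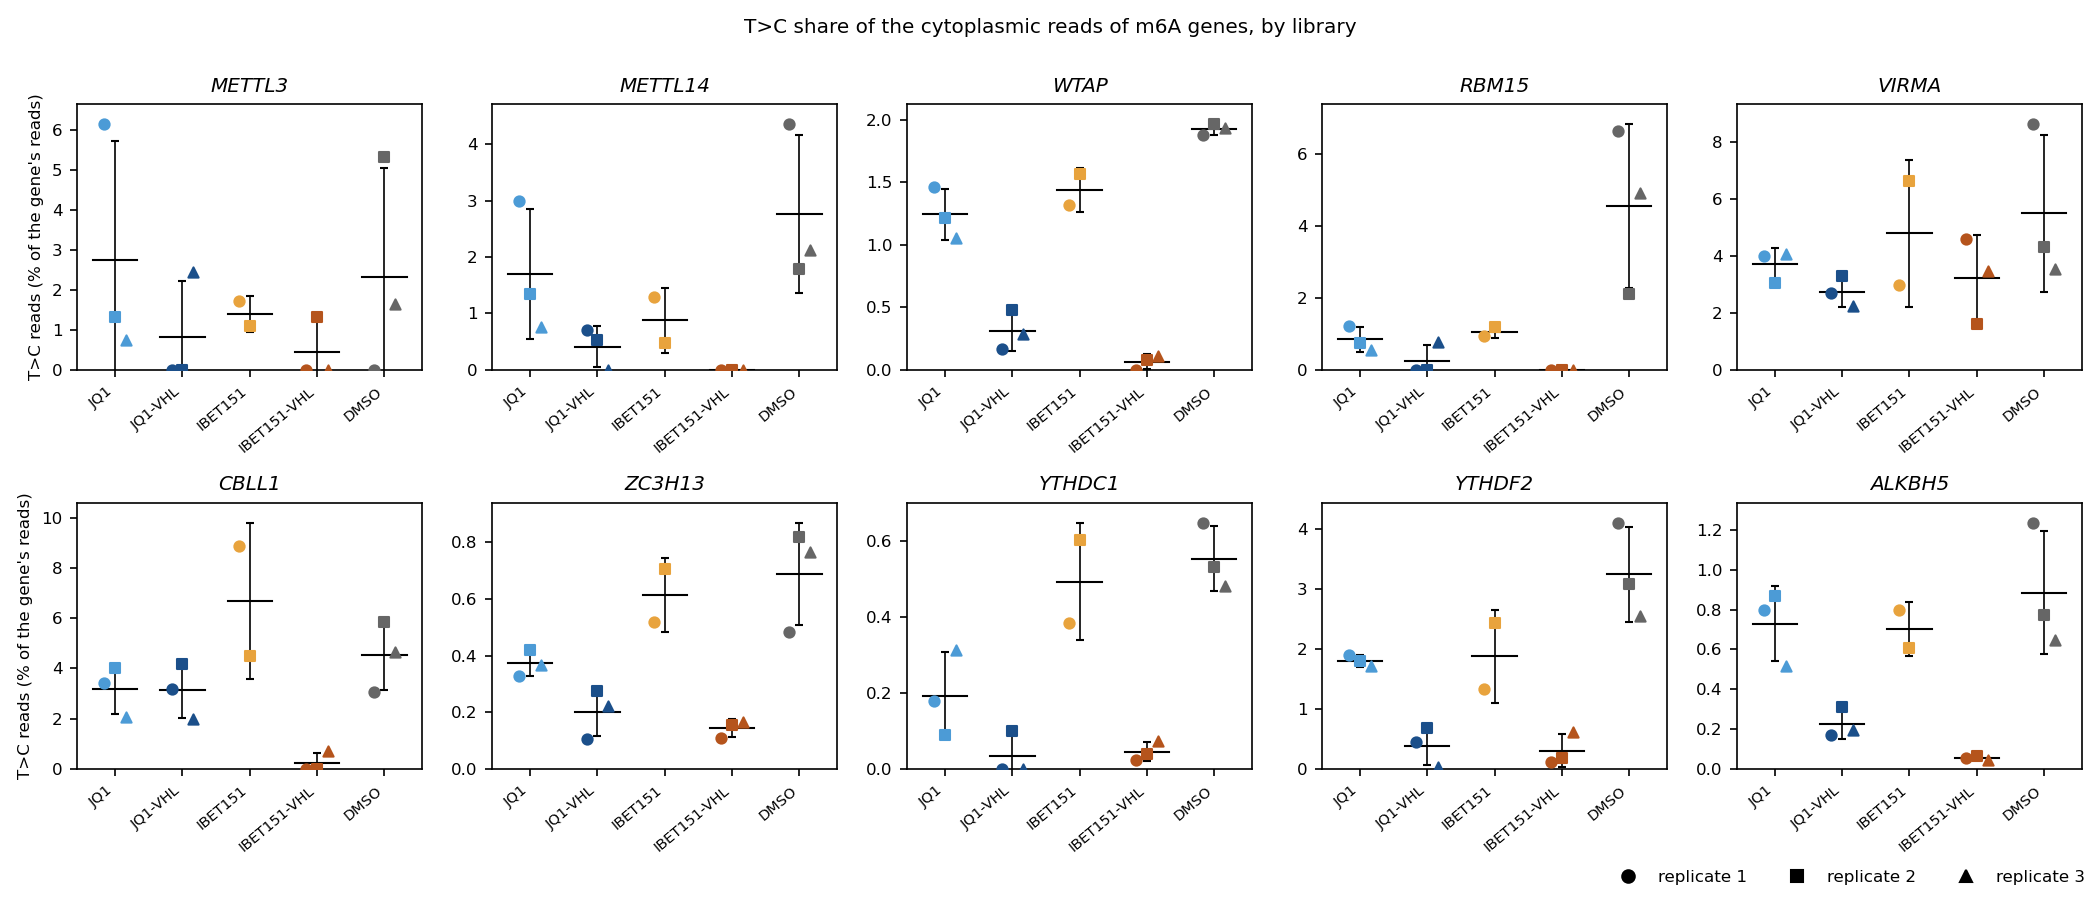
Share of T>C reads among each m6A gene's cytoplasmic reads, in percent (y axis, linear from 0), by library (points, shaped by replicate number) with mean and SD. RBM15 lies at 0 in IBET151-VHL and at 0.555% to 1.22% in JQ1, against 2.12% to 6.64% in DMSO, and VIRMA keeps a share of 1.62% to 4.60% in IBET151-VHL.

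The percent share of T>C reads does not depend on the ERCC scaling, while the tested value, log2((T>C + 1)/(all + 1)), keeps part of it where T>C values are near 0. For RBM15 with IBET151-VHL it was -3.17, and -4.14 with a pseudocount of 0.5 or -1.05 with one of 5. RBM15 shares were 1.22%, 0.76% and 0.555% in JQ1, 0.928% and 1.20% in IBET151, and 6.64%, 2.12% and 4.91% in DMSO. Each JQ1 and IBET151 library lay below each DMSO library. By the share, 1 member passed as lower with JQ1 (7.79% of all genes), RBM15 by -2.12 ± 0.60 (limma adjusted p = 0.037). The call was lost when any of the 3 JQ1 libraries or DMSO replicate 1 or 3 was left out (adjusted p of 0.052 to 0.15). With JQ1-VHL 7 of 9 passed (76.2% of all genes), with IBET151-VHL 8 of 9 (82.2%), and with IBET151 0 by limma (3.73%), 2 having an unadjusted p under 0.05. The T>C share of VIRMA passed with neither VHL compound, at -0.88 ± 0.49 (limma adjusted p = 0.11) with JQ1-VHL and -0.75 ± 0.49 (limma adjusted p = 0.16) with IBET151-VHL.

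In cytoplasmic T>C reads, 6 of 9 members were lower with JQ1-VHL than with JQ1 (46.5% of all genes), and 8 of 9 with IBET151-VHL than with IBET151 (69.1%). The first count was 3 without JQ1 replicate 1. WTAP was lower in both, by -2.20 ± 0.52 (limma adjusted p = 0.0015) for JQ1-VHL against JQ1 and by -4.68 ± 0.58 (limma adjusted p = 2.2e-07) for IBET151-VHL against IBET151, and VIRMA passed in neither. Between the VHL compounds, 3 of 9 members were higher with JQ1-VHL than with IBET151-VHL (3.03% of all genes): WTAP by 2.03 ± 0.52 (limma adjusted p = 0.027), CBLL1 by 2.11 ± 0.58 (limma adjusted p = 0.041) and ALKBH5 by 1.68 ± 0.42 (limma adjusted p = 0.027). CBLL1 T>C values were 4.02, 5.44 and 2.97 in JQ1-VHL against 0, 0 and 0.597 in IBET151-VHL. The count fell to 1 without IBET151-VHL replicate 1 and to 0 without JQ1-VHL replicate 2 or 3, and edgeR and DESeq2 called 2. JQ1 and IBET151 were not told apart in any member by limma, edgeR or DESeq2, with 0 at an unadjusted p under 0.05 and differences from -1.34 to 0.63.

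The nuclear fraction varied more between libraries. In DMSO nuclei, ALKBH5 stood at 3278, 9191 and 17029 in replicates 1, 2 and 3, and replicate 1 was also lowest for this gene in JQ1 (2616), JQ1-VHL (2651) and IBET151-VHL (2370.0). METTL3, the catalytic subunit, had nuclear values of 160.3, 376 and 189 in JQ1 libraries, 48.9, 195 and 189 in JQ1-VHL libraries, 443 and 368 in IBET151, 45.0, 111 and 114 in IBET151-VHL, and 341, 539.5 and 241 in DMSO. All libraries of both VHL compounds lay below all DMSO libraries. METTL3 changed by -2.08 ± 0.66 (limma adjusted p = 0.048) with IBET151-VHL and by -1.53 ± 0.66 (limma adjusted p = 0.33) with JQ1-VHL. It was the only one of 10 members called with IBET151-VHL, where 3.66% of 14417 genes were lower.

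METTL14 in nuclei stood at 214, 877 and 764 in JQ1-VHL and 168, 481 and 631 in IBET151-VHL, against 890.4, 1466 and 1823 in DMSO, and RBM15 at 415, 1235 and 1140 in JQ1-VHL and 208, 564 and 689.6 in IBET151-VHL, against 955, 1995 and 2133 in DMSO. Without a block their changes with IBET151-VHL, -1.84 ± 0.71 and -1.88 ± 0.72, did not pass (limma adjusted p = 0.13 for both). Same-numbered nuclear libraries of DMSO, JQ1 and the VHL compounds deviated together, and with the replicate number as a block 8 of 10 members passed as lower with IBET151-VHL (43.7% of all genes in that fit), all but ZC3H13 and ALKBH5, with an adjusted p of 6.5e-08 for RBM15. With the block 4 passed with JQ1-VHL (23.4% of all genes): RBM15, METTL3, METTL14 and YTHDF2. By library number, IBET151 replicates 1 and 2 stood beside replicates 2 and 3 of the VHL compounds. DMSO and JQ1 replicate 3 stood apart from replicate 3 of the VHL compounds, so this block joins libraries of different number runs. A block on runs of consecutive library numbers called more members with both VHL compounds. With median-ratio scaling 4 of the 10 changes were above 0 with JQ1-VHL and 3 with IBET151-VHL, none passing as higher, against 0 with the deposited scaling. Without a block limma called 0 with JQ1-VHL (1.07% of all genes lower), 0 with JQ1 (0.0486%) and 0 with IBET151 (0.00694%). The tools edgeR and DESeq2 also called 0 there, and 1, 0 and 0 members had an unadjusted p under 0.05. Between compounds limma, edgeR and DESeq2 called 0 members in all nuclear reads without a block. With a block on the replicate number or on runs of library numbers, limma did call members for some pairs of compounds, as given below. For JQ1-VHL against JQ1 0.166% of all genes were lower and no member had an unadjusted p under 0.05, while for IBET151-VHL against IBET151 0.506% were lower and 2 members, RBM15 and METTL3, had one. The METTL3 call was lost in each of the 6 fits that left out a DMSO or IBET151-VHL library, with changes of -2.36 to -1.65 and adjusted p of 0.059 to 0.34.

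**Figure D4:**
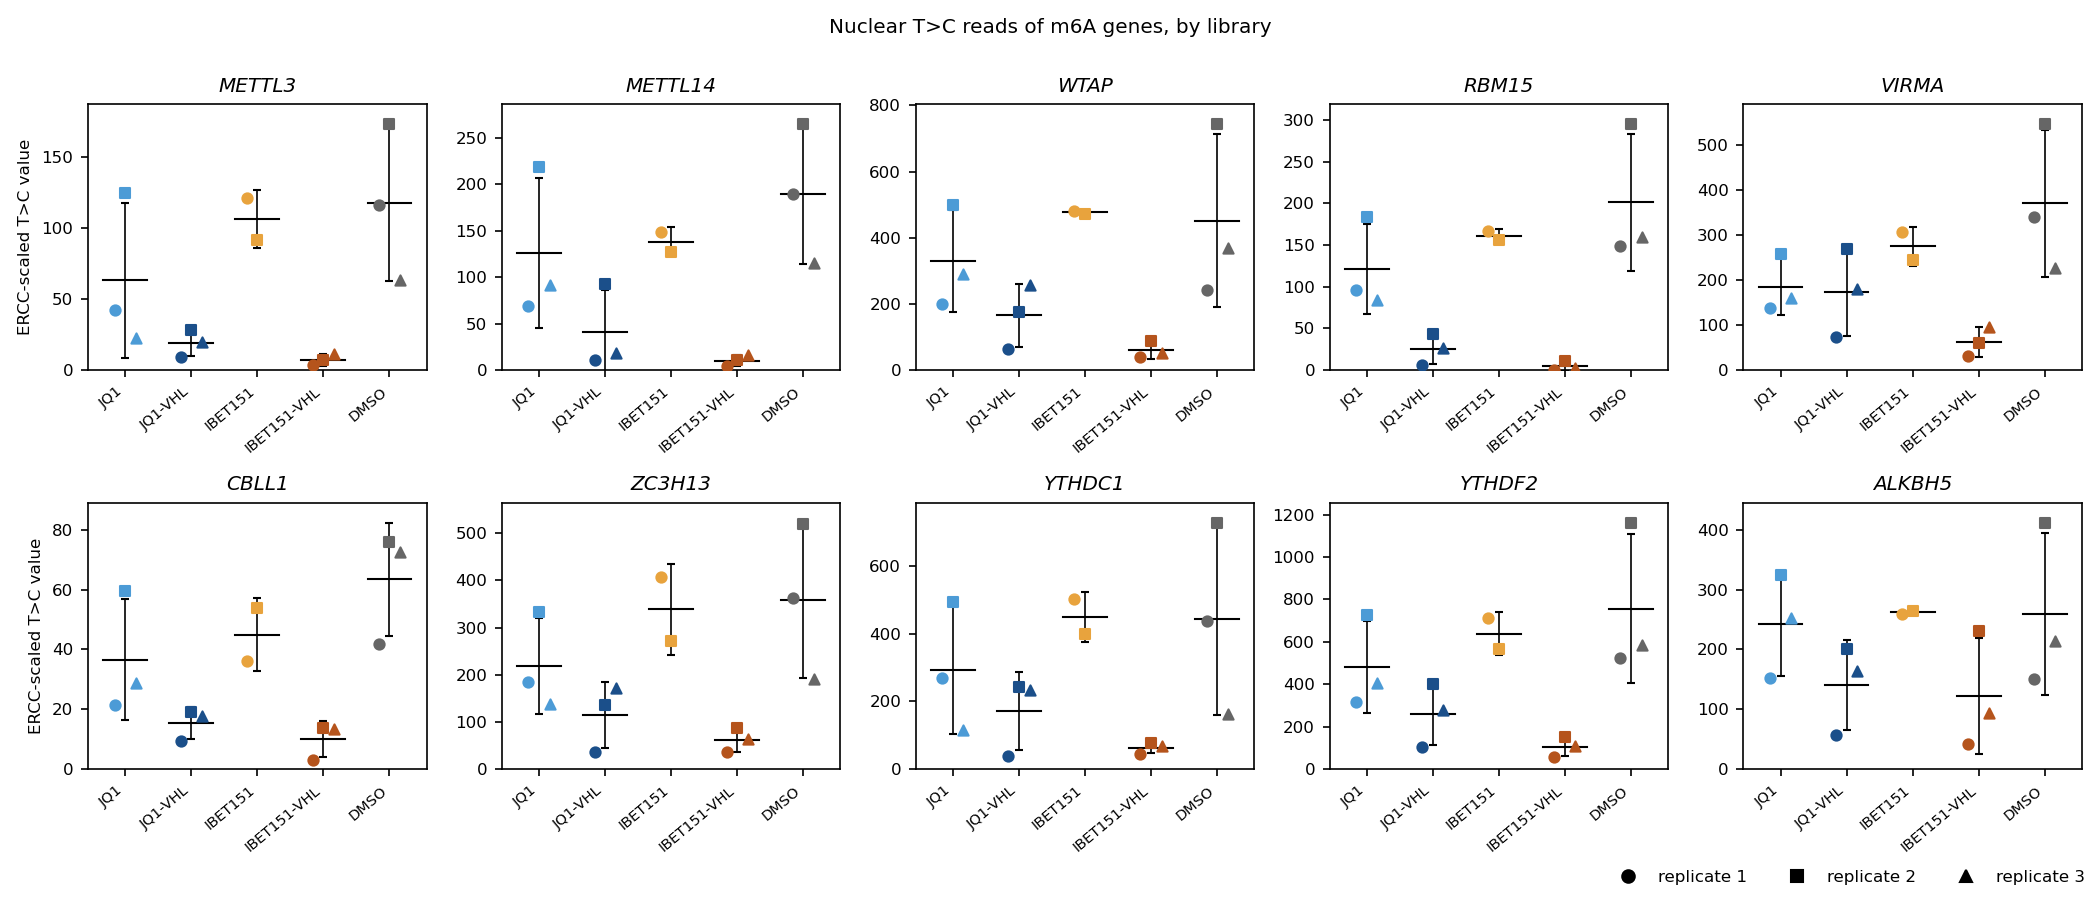
ERCC-scaled value of nuclear T>C reads (y axis, linear from 0) of each m6A gene by library (points, shaped by replicate number) with mean and SD. RBM15 lies between 0 and 10.4 in IBET151-VHL and between 6.03 and 43.6 in JQ1-VHL, against 148 to 295 in DMSO, while ALKBH5 groups overlap.

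Nuclear T>C reads were far more numerous. RBM15 T>C values in nuclei were 96.2, 183 and 83.4 in JQ1 libraries, 6.03, 43.6 and 26.7 in JQ1-VHL libraries, 167 and 155 in IBET151, 0, 10.4 and 2.24 in IBET151-VHL, and 148, 295 and 159 in DMSO. The VHL libraries lay far below the rest, and those of IBET151 lay within the DMSO range. RBM15 changed by -5.85 ± 0.77 (limma adjusted p = 1.6e-12) with IBET151-VHL and by -3.23 ± 0.77 (limma adjusted p = 0.00030) with JQ1-VHL. The difference between these compounds was 2.63 (95% interval 1.12 to 4.13) for RBM15, higher with JQ1-VHL (limma adjusted p = 0.016), and RBM15 was the only member called there, where 11.0% of all genes were. That call was lost without IBET151-VHL replicate 1 or 3 or JQ1-VHL replicate 2 or 3, while 8 members passed without JQ1-VHL replicate 1.

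METTL3 T>C values in nuclei were 9.38, 28.4 and 20.0 in JQ1-VHL and 3.11, 6.92 and 11.2 in IBET151-VHL, against 116, 173 and 63.2 in DMSO. They changed by -2.56 ± 0.79 (limma adjusted p = 0.0045) and -3.90 ± 0.79 (limma adjusted p = 2.7e-06) with JQ1-VHL and IBET151-VHL, and METTL14 changed by -2.72 ± 0.74 (limma adjusted p = 0.0015) and -4.21 ± 0.74 (limma adjusted p = 9.6e-08). ALKBH5 stood at 56.3, 201 and 164 in JQ1-VHL and 41.1, 230.1 and 94.0 in IBET151-VHL, against 151, 412 and 214 in DMSO, and passed in neither (-0.94 ± 0.68 with JQ1-VHL, limma adjusted p = 0.20, and -1.29 ± 0.68 with IBET151-VHL, limma adjusted p = 0.068). VIRMA changed by -1.18 ± 0.68 (limma adjusted p = 0.11) with JQ1-VHL and by -2.61 ± 0.68 (limma adjusted p = 0.00025) with IBET151-VHL. WTAP, CBLL1, ZC3H13, YTHDC1 and YTHDF2 changed by -1.99 to -1.50 with JQ1-VHL and by -2.84 to -2.49 with IBET151-VHL, and passed with both.

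In nuclear T>C reads 8 of 10 members were lower with JQ1-VHL, where 60.5% of 12059 genes were, and 9 of 10 with IBET151-VHL, where 83.9% were. The medians were -1.72 and -2.77 for the members and -1.92 and -3.12 for all genes. Median-ratio scaling moved the medians of all genes to -0.29 and -0.54, and WTAP, VIRMA, YTHDC1, YTHDF2 and ALKBH5 then turned to values above 0 with both VHL compounds, and ZC3H13 and CBLL1 with IBET151-VHL. ALKBH5 passed as higher with IBET151-VHL under that scaling (1.70). The count for JQ1-VHL was 3 without JQ1-VHL replicate 1 and 3 without DMSO replicate 2. With JQ1 and IBET151, limma called 0 members (2.29% and 0.987% of all genes lower), as did edgeR and DESeq2, and 0 had an unadjusted p under 0.05. Against JQ1, 2 members were lower with JQ1-VHL (13.0% of all genes), RBM15 by -2.48 ± 0.77 (limma adjusted p = 0.019) and METTL14 by -2.03 ± 0.74 (limma adjusted p = 0.048). That count was 0 without JQ1-VHL replicate 1 or JQ1 replicate 2, and 1 without JQ1 replicate 1 or 3 or JQ1-VHL replicate 3. Against IBET151, 9 were lower with IBET151-VHL (81.4%).

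By the nuclear T>C share, RBM15 alone passed with JQ1-VHL (-2.29 ± 0.72, limma adjusted p = 0.049, 9.44% of all genes lower), with shares of 1.45%, 3.53% and 2.34% against 15.5%, 14.8% and 7.45% in DMSO. That call was lost in 5 of the 6 fits that left out a library, and 3 members passed without DMSO replicate 3. With IBET151-VHL 8 of 10 passed (67.1%), or 4 without DMSO replicate 1 or 2 and 5 without IBET151-VHL replicate 2 or 3. Limma called 0 by the share with JQ1 (0.0166%) and IBET151 (0.0249%), with 0 at an unadjusted p under 0.05.

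The 2 fractions were compared within DMSO. Values are relative to the RNA mass of each fraction, so their ratios do not give the split of an RNA between nucleus and cytoplasm. METTL3 stood at 341, 539.5 and 241 in nuclei against 49.9, 95.4 and 63.1 in cytoplasm, and VIRMA at 2802, 4666 and 5399 in nuclei against 793, 1390.5 and 732 in cytoplasm, with no overlap. The log2 ratio of nucleus over cytoplasm was 2.38 ± 0.52 (limma adjusted p = 0.00021) for METTL3, 2.15 ± 0.52 (limma adjusted p = 0.00076) for VIRMA, 1.46 ± 0.52 (limma adjusted p = 0.018) for ZC3H13 and 1.32 ± 0.52 (limma adjusted p = 0.034) for METTL14. These 4 of 10 passed as higher in the nucleus, where 47.9% of 14458 genes did, and the median ratio was 1.02 for the members and 1.26 for all genes. The count was 2 without DMSO nuclear replicate 2 or cytoplasmic replicate 3, and with the replicate number as a block RBM15 also passed (55.3% of all genes). WTAP and ALKBH5 had ratios of 0.04 ± 0.59 (limma adjusted p = 0.97) and 0.34 ± 0.60 (limma adjusted p = 0.66). Median-ratio scaling moved the median of all genes to 0.17 and left 4 of the 10 ratios above 0, and with it WTAP (-1.11) and ALKBH5 (-0.80) passed as lower in the nucleus, while METTL14 and ZC3H13 no longer passed.

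**Figure D5:**
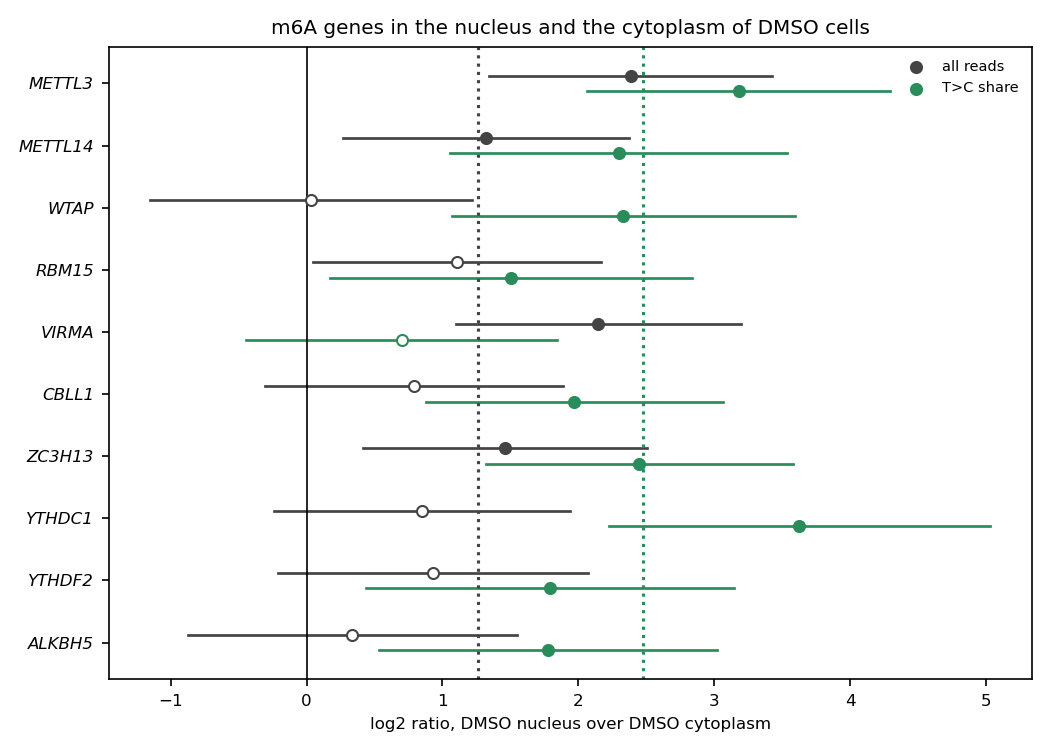
Log2 ratio of DMSO nucleus over DMSO cytoplasm (x axis) with its 95% interval for each m6A gene, in all reads and in the share of T>C reads. Filled points passed limma's adjusted p of 0.05 and dotted lines give the median of all genes. METTL3 is at 2.38 and WTAP at 0.04 in all reads, and VIRMA has the lowest ratio of the T>C share, 0.70.

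T>C reads of all 10 members were higher in DMSO nuclei than in DMSO cytoplasm, as they were for 93.6% of genes. With median-ratio scaling 4 of the 10 ratios stayed above 0, with a median of -0.40 against 2.81 with the deposited scaling, and 1 member passed as higher and 1 as lower. The T>C share of METTL3 was 34.0%, 32.1% and 26.2% in nuclei against 0%, 5.31% and 1.64% in cytoplasm, and 98.5% of 12842 genes had a lower mean nuclear share. CBLL1 had a mean nuclear share of 20.0 ± 6.69% and ALKBH5 one of 3.45 ± 1.90% (SD, n = 3), with a median of 7.27% over genes. By the share, 9 of 10 members passed as higher in the nucleus (76.9% of all genes), the exception being VIRMA at 0.70 ± 0.56 (limma adjusted p = 0.25). The nuclear share of DMSO replicate 3 was lower than that of replicates 1 and 2 in all 10 members, as was the share over all genes, 2.25% in replicate 3 against 8.02% and 6.34%.

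The drug effect was then compared between the fractions, as nuclear minus cytoplasmic log2 change. In all reads no member differed with any drug by limma, edgeR or DESeq2 (0.00692% of genes with IBET151-VHL and 0 with the others), and 1 member with IBET151-VHL had an unadjusted p under 0.05. In T>C reads ALKBH5 differed with IBET151-VHL by 2.18 ± 0.85 (limma adjusted p = 0.048; 1.57% of all genes were higher). That call was lost without any of 10 of the 12 libraries (1.55 to 2.33), all but IBET151-VHL nuclear replicate 1 and DMSO nuclear replicate 2. The fit also called METTL3 as lower (23.7% of all genes), which is not read as a difference between the fractions, since METTL3 had at most 6 cytoplasmic T>C reads in any library, DMSO included, and entered the fit through its nuclear values.

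Other genes of the pathway were taken from lists. In all cytoplasmic reads METTL16, a separate m6A writer that acts on the SAM synthetase mRNA, fell with JQ1 (-0.83 ± 0.21, limma adjusted p = 0.037), JQ1-VHL (-0.84 ± 0.21, limma adjusted p = 0.016) and IBET151-VHL (-1.05 ± 0.21, limma adjusted p = 0.0026), and was the only one of 4 other writers tested to pass. Of 12 other readers tested, YTHDF3 fell with JQ1-VHL (-0.67 ± 0.16, limma adjusted p = 0.013), and YTHDF3 (-0.87 ± 0.16, limma adjusted p = 0.0016) and YTHDF1 (-0.55 ± 0.13, limma adjusted p = 0.0069) fell with IBET151-VHL. Both are cytoplasmic YTH readers like YTHDF2. Over all genes, 4.00% were lower with JQ1, 12.5% with JQ1-VHL, 1.62% with IBET151 and 15.4% with IBET151-VHL in these reads. The counts of readers are near these shares and are no result about readers as a group. Of the 8 genes of methyl donor supply and the 9 reader partners tested, limma called 0 with any drug in all cytoplasmic reads, with 0 or 1 per list and drug at an unadjusted p under 0.05. FTO, the other m6A demethylase, did not pass in all cytoplasmic reads, but its T>C reads fell with all 4 drugs: by -2.00 ± 0.55 (limma adjusted p = 0.014) with JQ1, -2.68 ± 0.55 (limma adjusted p = 0.00011) with JQ1-VHL, -2.31 ± 0.62 (limma adjusted p = 0.021) with IBET151 and -3.29 ± 0.55 (limma adjusted p = 5.8e-06) with IBET151-VHL. Of all genes tested in cytoplasmic T>C reads, 20.1%, 82.8%, 6.76% and 88.3% were lower with JQ1, JQ1-VHL, IBET151 and IBET151-VHL. In nuclei the other writer METTL5, which methylates ribosomal RNA, fell in all reads with IBET151-VHL (-2.36 ± 0.69, limma adjusted p = 0.029), where 3.66% of all genes were lower.

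The 3 genes whose cytoplasmic all-read values were most like those of RBM15 over the 14 libraries, among 10232 genes with a mean of at least 50, were WDR91 (Pearson r 0.973), MAP3K1 (0.973) and CDC25A (0.972). Among the members YTHDF2 was the most like it (0.891), followed by CBLL1 (0.875), METTL14 (0.863) and WTAP (0.833), and ALKBH5 the least (-0.08). The points share the libraries and the drug groups, and the values are a description.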

How the data were processed

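The authors deposited 2 tables for the whole series, of all reads and of T>C reads, as signal scaled to ERCC RNA. bcl2fastq, Trimmomatic 0.39, HISAT2, HTSeq and DESeq2 and the builds GRCh37, hg19 and dm3 are named in the submitters' processing notes, without roles. The rule by which a read counted as T>C is not given in the sources used here. S2 cells of Drosophila, at 10%, had been mixed in ahead of the digitonin step, per the labels' protocols. In each library 100% of values lay within 0.001 of whole multiples of 1 step, which gave back whole reads. The step of 1 read was 0.67 to 2.24 units for nuclear libraries and 0.374 to 0.951 for cytoplasmic ones.

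The 10 members and the gene lists were chosen with earlier results of these data known. A gene was kept where 2 or more libraries reached 10 in all reads, or 5 in T>C reads, and kept genes were fitted with limma 3.58.1 (R 4.3.3), with a variance trend, on log2(value + 1). Fits used the 14 libraries of a fraction, or all 28 for comparisons between fractions. The T>C share was fitted as log2((T>C + 1)/(all + 1)). Benjamini-Hochberg adjustment was per comparison over all genes, and an adjusted p under 0.05 passed. Intervals are 95% intervals of the model, and limits for 0 reads (3 counts) cover counting error only. Named genes are the 10 members, other listed genes that passed (at most 5 per list) and the 3 genes most like RBM15.

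Same-numbered libraries were checked for pairing by the correlation of their deviations from group means, every pair over 0.1 being required. In all reads it held between every pair of groups without IBET151 (lowest r 0.159 in nuclei and 0.203 in cytoplasm) and between the fractions of DMSO (0.105), in T>C reads for JQ1 and DMSO nuclei (0.234), and never with IBET151. What a number marks is not in the labels. By library number, IBET151 replicates 1 and 2 stood beside replicates 2 and 3 of the VHL compounds. Same-numbered pairs with IBET151 were thus not neighbours by library number, and for them the check cannot show whether libraries were paired.

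The settings varied were the pseudocount (0.5 and 5), the filter (none, or 5 times the minimum), median-ratio scaling, fits of only the groups compared, a block on the replicate number or on runs of consecutive library numbers, and leaving out each library. Recovered reads were tested with edgeR 4.0.16, by quasi-likelihood, and with DESeq2 1.42.0, both keeping the authors' ERCC scaling. On simulated counts for JQ1-VHL against DMSO cytoplasm, all reads, limma called 56 of 66 genes set to 4-fold, 25 of 67 set to 2-fold, 2 of 67 set to 1.5-fold and 6 of 12270 left unchanged. In T>C reads 10 of 66, 1 of 67 and 0 of 67 were called for the same folds, with 0 of 6100 unchanged genes. In the data 82.8% of 6300 genes were called lower there, against few genes set to change in the simulation. The adjustment depends on that share, so these T>C counts do not give the power of the test on the data. Figures used matplotlib 3.10.9 (Python 3.11.15).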

Additional observations from a re-analysis of the deposited data

Results flagged for a closer look

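The drug effect of IBET151-VHL on T>C reads of ALKBH5 passed narrowly as different between nucleus and cytoplasm, by the test of the difference itself. In that test 1.57% of all genes were higher and 23.7% lower. The call was lost when most single libraries were left out, as given above. The nuclear minus cytoplasmic log2 change was 2.18 (limma adjusted p = 0.048), with nuclear values of 41.1, 230.1 and 94.0 in IBET151-VHL against 151, 412 and 214 in DMSO, and cytoplasmic values of 4.04, 4.32 and 3.58 in IBET151-VHL against 59.6, 60.8 and 43.5 in DMSO. DESeq2 called it and edgeR did not (adjusted p = 0.049 and 0.20), and limma did not with a pseudocount of 0.5 or 5 or with no filter (adjusted p of 0.051 to 0.081).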

How the results depend on the processing

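Counts below are of members called, as lower unless said otherwise, and as higher for JQ1-VHL against IBET151-VHL. In all cytoplasmic reads, JQ1-VHL against DMSO had 3, and 1 with no filter, 0 with only the groups compared and 0 to 3 when a library was left out. IBET151-VHL had 4 to 5 when a library was left out. The run block gave 1 for JQ1, 4 for IBET151-VHL against IBET151 and 1 for JQ1-VHL against JQ1, where median-ratio scaling gave 1, 2 with the replicate block, and DESeq2 1. Median-ratio scaling with the replicate block gave 2 for IBET151, 1 of them higher. IBET151-VHL against IBET151 stayed at 2 with any library left out. In all nuclear reads IBET151-VHL had 1, and 0 with a pseudocount of 5, no filter, the 5-fold filter or any library left out. The replicate block gave 8 for IBET151-VHL, 4 for JQ1-VHL, 8 for IBET151-VHL against IBET151 and 2 for JQ1 against IBET151. The run block gave 10, 8 and 5 for the first 3 of these, 4 for JQ1, 3 for IBET151, and 1 each for JQ1-VHL against JQ1 and against IBET151-VHL. Median-ratio scaling gave 4, 1 and 1 without the replicate block and 5, 2 and 2 with it for the same 3, and 1 with it for IBET151.

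In cytoplasmic T>C reads JQ1 had 1, and 3 with a pseudocount of 5 or only the groups compared, 2 with edgeR and 0 with median-ratio scaling, with or without the replicate block. IBET151 had 0, and 2 with a pseudocount of 5 or only the groups compared and 1 with the run block. The 5-fold filter left 5 members to test and gave 5 for each VHL compound and 4 for IBET151-VHL against IBET151. Median-ratio scaling gave 3 for JQ1-VHL (2 with the replicate block), 4 for IBET151-VHL (3 lower and 1 higher), 3 for IBET151-VHL against IBET151 (2 lower and 1 higher) and 0 for JQ1-VHL against JQ1. JQ1-VHL against IBET151-VHL had 3, and 0 with a pseudocount of 5, only the groups compared or median-ratio scaling with the replicate block, and 1 with no filter or median-ratio scaling. Leaving out a library gave 0 to 1 for JQ1, 7 to 8 for JQ1-VHL, 8 to 9 for IBET151-VHL, 3 to 6 for JQ1-VHL against JQ1, 7 to 8 for IBET151-VHL against IBET151 and 0 to 2 between the VHL compounds.

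In nuclear T>C reads median-ratio scaling, with or without the replicate block, gave 0 for JQ1-VHL, 3 for IBET151-VHL (2 lower and 1 higher) and 2 for IBET151-VHL against IBET151 (1 lower and 1 higher). Only the groups compared gave 3 for JQ1-VHL. JQ1-VHL against JQ1 had 2, and 1 with a pseudocount of 0.5, no filter, edgeR or DESeq2, 1 as higher with median-ratio scaling with the replicate block, 0 with median-ratio scaling or only the groups compared, and 9 with the run block. JQ1-VHL against IBET151-VHL had 1, and 0 with a pseudocount of 5, median-ratio scaling or only the groups compared, 7 with the run block and 3 with DESeq2. Leaving out a library gave 3 to 8 for JQ1-VHL, 9 to 10 for IBET151-VHL, 0 to 2 for JQ1-VHL against JQ1, 7 to 10 for IBET151-VHL against IBET151 and 0 to 8 between the VHL compounds. For nuclear minus cytoplasmic T>C change, IBET151-VHL had 2 in either direction, METTL3 included, and 0 with a pseudocount of 0.5 or edgeR and 1 with no filter or DESeq2, while JQ1-VHL had 0, and 1 with a pseudocount of 5, the replicate block or the run block; leaving out a library gave 0 to 2 for both.

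By the cytoplasmic T>C share JQ1 had 1, and 0 with a pseudocount of 0.5 or no filter, 2 with a pseudocount of 5 and 0 to 1 with a library left out. IBET151 had 1 with a pseudocount of 5, and the 5-fold filter gave 4 of 5 tested for each VHL compound. With any library left out JQ1-VHL gave 7 and IBET151-VHL 8. By the nuclear share JQ1-VHL had 1, and 0 with either pseudocount or no filter, 3 with the replicate block, 9 with the run block and 0 to 3 with a library left out, and IBET151-VHL had 4 to 9 with a library left out and 10 with the run block. Between DMSO fractions, median-ratio scaling gave 2 in T>C reads (1 higher and 1 lower), and leaving out a library gave 2 to 6 in all reads, 6 to 9 by the share and 10 in T>C reads. The comparisons whose range is not given stayed at 0 with each library left out.

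Changes that passed in either setting turned direction under median-ratio scaling, with or without the replicate block, and under no other setting. Between DMSO fractions WTAP became -1.11 and ALKBH5 -0.80. In cytoplasmic T>C reads VIRMA became 1.11 and ALKBH5 0.35 with JQ1-VHL, VIRMA 1.85 and ZC3H13 0.35 with IBET151-VHL, and VIRMA 1.94 (2.08 with the block) and ZC3H13 0.35 (0.40 with the block) for IBET151-VHL against IBET151. In nuclear T>C reads WTAP became 0.25, YTHDC1 0.23 and YTHDF2 0.12 with JQ1-VHL, and WTAP 0.15, VIRMA 0.38, ZC3H13 0.49, CBLL1 0.13, YTHDC1 0.41, YTHDF2 0.16 and ALKBH5 1.70 with IBET151-VHL. Of the other results and settings, 4626 were the same in direction and call, 230 lost the call and 116 gained it. Another 298, not called in either setting, turned direction, 95 under median-ratio scaling and 203 under other settings. The causes were not tested. Depth kept METTL3, with 0 to 6 cytoplasmic T>C reads a library, out of that test.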
